A study of Arabidopsis thaliana with 6 samples.

Results

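The genes described here encode transporters and channels for nutrients, ions and water in Arabidopsis thaliana. They are the probe sets for which the array's platform annotation gives exactly 1 gene, with a symbol that starts with one of 24 family prefixes (such as NRT, ZIP, CHX, MTP or GLR) followed by a digit. The rule found 18 genes, each with 1 probe set, among 13513 probe sets with exactly 1 gene and 22746 probe sets that are not controls. They were measured in root tips of 1 cm from 7-day-old seedlings grown in darkness at 23 °C on agar with Murashige and Skoog salts and sucrose. In 3 samples the seedlings had received 1 h of red light with a peak at 630 nm and a photon flux of 12 to 14 µmol m-2 s-1, and in 3 samples they had stayed in darkness for that hour. Each sample was pooled from several plates and hybridised to 1 array, and the accession or ecotype of the plants was not given in the sources used here.

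Roots take up nitrate, potassium, zinc, iron and manganese through families of membrane proteins, many of which are switched on when their nutrient runs short. NRT2 proteins carry nitrate at low supply, ZIP and NRAMP proteins carry divalent metals into the cytosol, and MTP proteins move metals out of the cytosol into internal compartments. CHX proteins exchange cations for protons, and GLR proteins are relatives of animal glutamate receptors that form amino acid-gated cation channels. The comparison asks whether transcripts of these genes respond in the root within 1 h of red light.

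Of the 17 families that the prefixes form, 6 had a member. There were 7 GLR genes, 6 CHX genes, 2 ZIP genes and 1 gene each of NRT2, MTP and NRAMP. The other 11 families had no probe set that the annotation names in this way. Among them are the aquaporin families PIP, TIP, NIP and SIP, the ammonium (AMT), phosphate (PHT) and sulfate (SULTR) transporters, the potassium transporters and channels, the HMA metal pumps, the BOR borate exporters and the CNGC channels. No statement on water transport, or on the uptake of ammonium, phosphate, sulfate or borate by these families, can therefore be made here. RefSeq lists 204 Arabidopsis symbols that carry one of the prefixes followed by a digit, a few of them for unrelated proteins, such as the PIP5K lipid kinases. All 18 genes found by the rule are transporters or channels by their names.

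Signals are MAS5 intensities on a linear scale. Probe sets were tested where their mean log2 signal over the 6 arrays lay above the 40th percentile, which corresponds to a signal of 88.4. This left 13647 probe sets, 60% of all and 54.5% of those with exactly 1 gene. Of the 18 transporter and channel genes 5 passed, 27.8%, namely ZIP6, MTP11, GLR3.3, ZIP9 and GLR3.6. Both ZIP genes and the MTP gene passed, 2 of 7 GLR genes passed, and none of the 6 CHX genes, NRT2.5 or NRAMP5 did. Probe sets differ in how well they bind their target, so these signals say how far a gene stands above the dim end of its array and do not rank the transcripts of different genes by amount.

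The 6 arrays fell into 2 classes that cross the treatment, by the ratio of the 3' to the 5' control probe set of the GAPDH transcript, a measure of how far the labelled target reaches towards the 5' end. The ratio was 20.9 in red light 1, 26.2 in dark 1 and 20.2 in dark 3, the high-ratio arrays. It was 0.981 in red light 2, 1.27 in red light 3 and 1.45 in dark 2, the low-ratio arrays. The same ratio for the actin control was 13.8, 20.9 and 15.3 on these low-ratio arrays, far from 1 there too. On red light 1, dark 1 and dark 3 the actin ratio was 138.2, 71.7 and 90.7. Because 1 red light and 2 dark arrays lie in the high-ratio class and 2 and 1 in the other, changes are given from a limma fit with array class beside treatment, with n = 3 arrays per group. A positive change means a higher log2 signal in red light. In that fit 17 of 13647 probe sets were called at an adjusted p under 0.05, which is 0.125%, and 939 had an unadjusted p under 0.05, which is 6.88%. With treatment as the only term limma called 0 probe sets. The median array signal lay between 150 and 176.4.

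No difference between red light and dark was detected for the 5 tested transporter and channel genes. Limma called 0 of 5, against 0.125% of all probe sets tested, and 0 of 5 had an unadjusted p under 0.05. Their adjusted p-values lay between 0.783 and 0.999. The changes were above 0 for MTP11 and GLR3.6 and below 0 for ZIP6, GLR3.3 and ZIP9, with a median of -0.0078, beside a median of -0.030 over all probe sets tested. The signals of the groups overlapped for all 18 genes, tested or not. Of all probe sets that are not controls, 6.68% had groups that did not overlap, a share so low that a set of 18 can hold none.

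**Figure D1:**
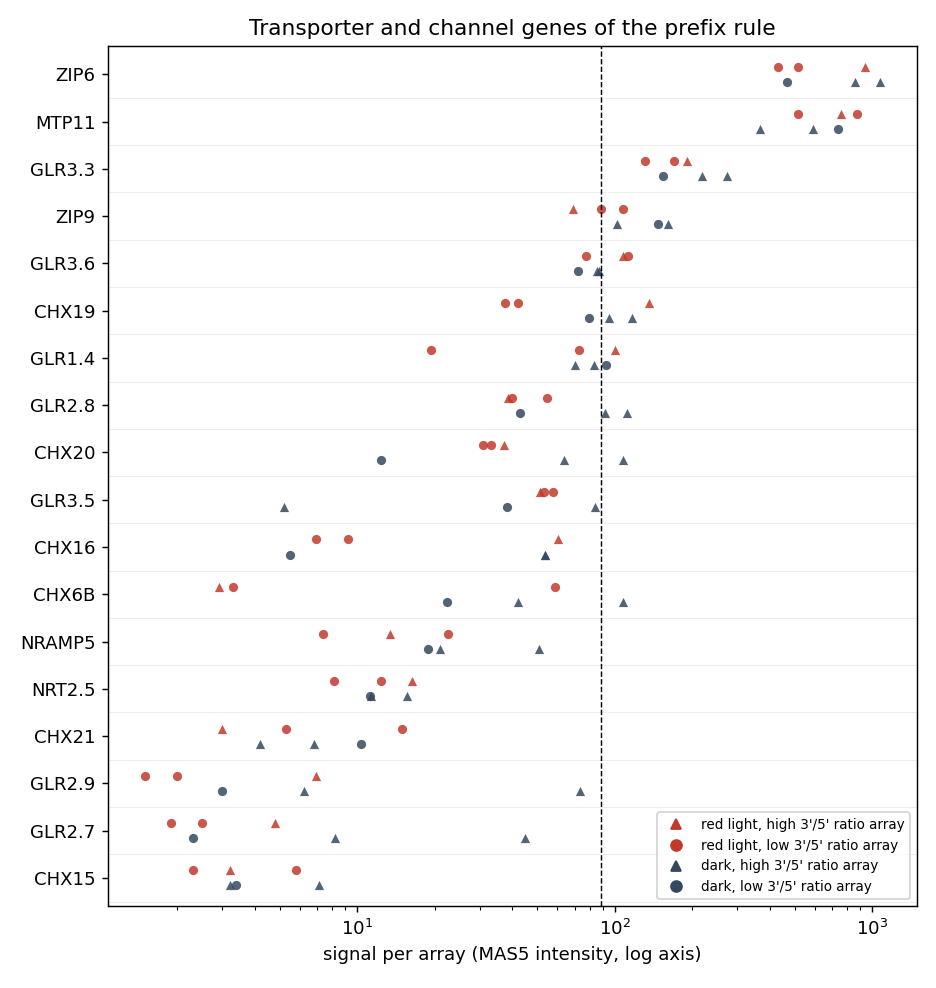
Signal of the 18 genes on each of the 6 arrays (MAS5 intensity, logarithmic axis), with red light arrays above dark arrays in each row, triangles for high-ratio arrays and circles for low-ratio arrays. The genes are ordered by mean log2 signal, the dashed line marks the signal of 88.4 that a mean had to exceed to be tested, and 5 genes have their mean to the right of it.

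The 2 genes farthest above the filter were metal transporters. ZIP6 (AT2G30080), of the ZRT/IRT-like family of zinc and iron transporters, had signals of 937.8, 514.9 and 432.7 in red light, against 858.4, 466.5 and 1071.7 in the dark, for replicates 1, 2 and 3. The high values of both treatments were those of the high-ratio arrays. Its mean log2 signal stood at the 79.4th percentile of the 22746 probe sets. The change was -0.0078 (SE 0.21, limma adjusted p = 0.999), with a 95% interval of -0.48 to 0.46. In linear terms this interval runs from 0.718-fold to 1.38-fold, the narrowest of the 5 genes. The change was -0.032 within the high-ratio arrays and 0.017 within the low-ratio arrays. With treatment alone in the fit it was -0.35 (SE 0.43).

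MTP11 (AT2G39450), a cation diffusion facilitator known for manganese tolerance, had signals of 760.3, 514.1 and 875.9 in red light, against 591.4, 738 and 367.4 in the dark. The groups overlapped, with the lowest value in dark 3 and the highest in red light 3. The change was 0.28 (SE 0.31, limma adjusted p = 0.907), with a 95% interval of -0.39 to 0.96. It was 0.71 within the high-ratio arrays and -0.14 within the low-ratio arrays, so its direction differed between the classes, a difference that was not tested.

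ZIP9 (AT4G33020), a member of the same family as ZIP6 that is known to be induced by zinc deficiency, had signals of 69, 88.9 and 107.6 in red light, against 102.3, 147.8 and 161.7 in the dark. Only red light 3 and dark 1 overlapped. The mean log2 signal was 6.44 in red light, just below the filter limit, and 7.07 in the dark. ZIP9 thus passed the filter through its dark arrays. Among the 5 genes ZIP9 had the change farthest from 0, at -0.75 (SE 0.40, unadjusted p = 0.0863, limma adjusted p = 0.783), with a 95% interval of -1.62 to 0.13. The change was -0.90 within the high-ratio arrays and -0.60 within the low-ratio arrays. It did not pass the test, and the interval holds 0 as well as a level in red light of 0.325-fold. With plain eBayes, without the trend and robust options, the same change had an SE of 0.26 (limma adjusted p = 0.718). The width of the interval thus depends on that setting.

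The last metal transporter, NRAMP5 (AT4G18790), belongs to a family of iron and manganese transporters and had signals of 13.4, 7.4 and 22.6 in red light, against 51.1, 18.9 and 21 in the dark. All 6 values lay below 88.4, and the gene was not tested. Its mean stood at the 18.1th percentile.

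The single nitrate transporter was NRT2.5 (AT1G12940), a high-affinity carrier known from nitrogen-starved plants. Its signals were 16.3, 12.4 and 8.1 in red light, against 15.6, 11.2 and 11.3 in the dark. They were low on every array and the highest was 2.01 times the lowest, the smallest such ratio among the 13 untested genes. Its mean stood at the 11.8th percentile.

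The 6 CHX genes encode cation/proton exchangers, a family with many members known from pollen, and none passed the filter. CHX19 (AT3G17630) came nearest to it, with signals of 136.3, 37.7 and 42 in red light, against 116.7, 79.3 and 95.3 in the dark. Red light 1 was highest and the other red light arrays were lowest. CHX20 (AT3G53720), known for its role in guard cells, had signals of 37.2, 33.1 and 30.8 in red light, against 63.4, 12.4 and 107.8 in the dark. The red light values lay between the lowest and the other dark values.

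CHX16 (AT1G64170) had signals of 60.2, 6.9 and 9.2 in red light, against 53.7, 5.5 and 53.6 in the dark. The 3 high-ratio arrays lay at 53.6 to 60.2 and the 3 low-ratio arrays at 5.5 to 9.2. CHX6B (AT1G08135) had signals of 2.9, 3.3 and 58.7 in red light, against 42, 22.4 and 108 in the dark, the widest range among the CHX genes, with the highest value 37.2 times the lowest. CHX21 (AT2G31910), known from the guidance of pollen tubes, had 3, 5.3 and 14.9 in red light, against 4.2, 10.4 and 6.8 in the dark. CHX15 (AT2G13620) had the lowest mean of the 18 probe sets, with 3.2, 5.8 and 2.3 in red light, against 3.2, 3.4 and 7.1 in the dark. The last 2 genes stayed at or below 14.9 on every array.

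The GLR genes comprised channels of 3 clades, shown by the first digit of their names, and both tested members belong to clade 3. GLR3.3 (AT1G42540), known for carrying wound signals over long distances and for amino acid-triggered calcium entry in roots, had signals of 191.1, 169.5 and 131.8 in red light, against 218.9, 153.6 and 272.9 in the dark. The groups overlapped, and in each treatment the high-ratio arrays gave the highest values. The change was -0.20 (SE 0.30, limma adjusted p = 0.944), with a 95% interval of -0.87 to 0.47, and was -0.35 and -0.039 within the high-ratio and low-ratio arrays.

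GLR3.6 (AT3G51480), which acts with GLR3.3 in wound signalling, had signals of 108, 113.1 and 77.5 in red light, against 87.3, 72.4 and 85.5 in the dark. Red light 1 and 2 lay above all dark arrays, and red light 3 lay among them. The change was 0.35 (SE 0.42, limma adjusted p = 0.924), with a 95% interval of -0.58 to 1.28, and was 0.32 and 0.37 within the high-ratio and low-ratio arrays. With plain eBayes the SE was 0.24 (limma adjusted p = 0.850). With a mean signal of 89.4 it was the tested member just inside the limit of 88.4, and CHX19, with 75.8, was the one just outside. All dark signals of GLR3.6 lay below this limit, so that it passed through red light 1 and 2.

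GLR3.5 (AT2G32390), of the same clade, had signals of 51.2, 53.3 and 57.9 in red light, against 5.2, 38.2 and 83.8 in the dark. The red light values were close together and the dark values enclosed them. GLR1.4 (AT3G07520), characterised as a methionine-gated channel in frog oocytes, had signals of 100.8, 72.6 and 19.3 in red light, against 83.2, 92.8 and 70.5 in the dark. Only red light 3 stood apart.

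GLR2.7, GLR2.8 and GLR2.9 are known for calcium entry during immune signalling and lie beside each other in the genome, as AT2G29120, AT2G29110 and AT2G29100. GLR2.8 stood highest above the dim end of the arrays, with signals of 38.5, 54.6 and 40 in red light, against 91.9, 42.8 and 111.3 in the dark. GLR2.7 had 4.8, 2.5 and 1.9 in red light, against 44.9, 2.3 and 8.2 in the dark. GLR2.9 had 6.9, 1.5 and 2 in red light, against 6.2, 3 and 73.3 in the dark. In these last 2 genes 1 dark array far exceeded the others, dark 1 for GLR2.7 and dark 3 for GLR2.9. Their means stood at the 3.06th and 3.52th percentile, below the filter. The median residual SD of a probe set, in log2 units and with array class and treatment fitted, was 1.17 below the filter and 0.289 above it.

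When all 22746 probe sets were fitted without the filter, limma called 0 of the 13 untested genes for red light, beside 0.0835% of all probe sets, and 0 of 13 had an unadjusted p under 0.05, beside 5.87% of all probe sets. Their adjusted p-values ran from 0.887 (CHX6B) to 0.999 (NRT2.5). CHX6B had a change of -2.61 (SE 1.37) in that fit, and its change was -4.54 within the high-ratio arrays and -0.69 within the low-ratio arrays. For NRT2.5 the change was 0.068 (SE 1.102). Limma takes this standard error partly from other probe sets of similar signal, and the residual SD of NRT2.5 itself was 0.349. At a standard error of this size, a difference of severalfold in a gene as dim as NRT2.5 was not detectable.

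**Figure D2:**
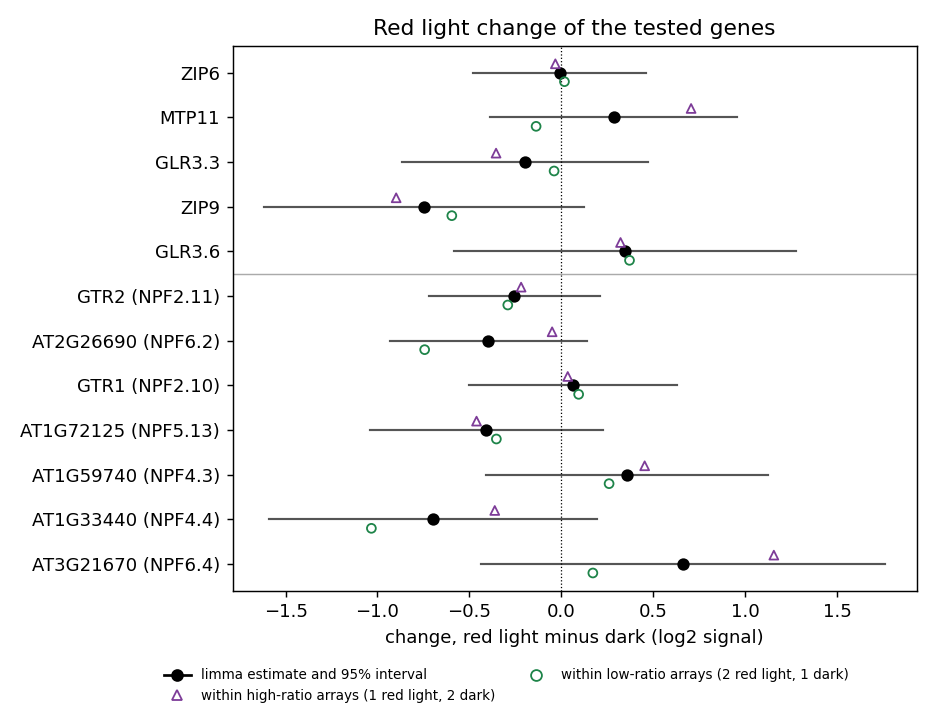
Change of the 5 tested transporter and channel genes (above the grey line) and of 7 NPF genes (below it), as red light minus dark in log2 signal. Black points and lines are limma estimates with 95% intervals, open triangles and circles the change within high-ratio and low-ratio arrays, and every interval includes 0.

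The prefix rule reads gene symbols, and some members of the same families carry another symbol. Among probe sets with exactly 1 gene, 12 genes have an NPF or GLR name only among their synonyms in the RefSeq table: 11 NPF genes and 1 GLR gene. This set was put together from names after the table had been read. NPF proteins carry nitrate, peptides, hormones or glucosinolates, depending on the member. Of the 12, 7 were tested, which is 58.3%. Limma called 0 of 7 for red light, beside 0.125% of all probe sets, and 0 of 7 had an unadjusted p under 0.05. Their median change was -0.26, with 3 above and 4 below 0.

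GTR2 (NPF2.11), a glucosinolate transporter, had signals of 965.6, 1534.9 and 1096.6 in red light, against 1204.4, 1587.6 and 1048.5 in the dark. Its change was -0.26 (SE 0.21, limma adjusted p = 0.881), with a 95% interval of -0.72 to 0.21. GTR1 (NPF2.10), its partner in glucosinolate transport, had 245.8, 259.5 and 266.6 in red light, against 229.9, 246.4 and 250.4 in the dark. Its 6 values were the closest together, the highest being 1.16 times the lowest, and its change was 0.065 (SE 0.26).

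AT2G26690 (NPF6.2, also known as the nitrate transporter NRT1.4) had signals of 830.4, 788.8 and 638.4 in red light, against 1011.8, 1188 and 730.5 in the dark. The change was -0.40 (SE 0.24, limma adjusted p = 0.827), and was -0.050 and -0.74 within the high-ratio and low-ratio arrays. AT3G21670 (NPF6.4, also known as NRT1.3) had 222, 113.3 and 55.8 in red light, against 67.2, 70.6 and 147.7 in the dark. Its highest value was 3.98 times its lowest, the widest of the 7, and its change was 0.66 (SE 0.50).

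Among the other tested NPF genes, AT1G33440 (NPF4.4) had signals of 97.7, 128.9 and 73.8 in red light, against 148.9, 199.6 and 105.9 in the dark, with a change of -0.70 (SE 0.41). AT1G72125 (NPF5.13) had 157, 210 and 178.3 in red light, against 190.6, 247.2 and 245.1 in the dark, with a change of -0.41 (SE 0.29). AT1G59740 (NPF4.3) had 157.6, 138.3 and 122.7 in red light, against 112, 108.8 and 118.3 in the dark. It was the only one of the 7 whose groups did not overlap, where 6.16% of all probe sets tested had such groups, and its change of 0.36 (SE 0.35) had a limma adjusted p of 0.896. The residual SD of AT1G59740 itself was 0.101, and limma takes the standard error partly from other probe sets.

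The 5 untested genes of this set had signals of 2.0 to 122.2. They were AT1G68570 (NPF3.1), ATGLR1.2, AT3G25260 (NPF4.1), AT3G25280 (NPF4.2) and AT1G27040 (NPF4.5). NPF3.1 and NPF4.1 are known to carry gibberellins. AT3G25260 had signals of 5.5, 42.5 and 56.2 in red light, against 73.6, 41.9 and 41.7 in the dark, and only red light 1 stood apart from the rest.

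Genes that work with these transporters were taken from 6 lists of 169 genes in all, of which the annotation names 11 on the array and 10 passed the filter. The lists of nitrate and ammonium use (31 genes) and of other potassium, sodium, calcium and anion transporters (43 genes) had none. Limma called 0 of the 10 for red light, beside 0.125% of all probe sets, and 0 of 10 had an unadjusted p under 0.05. Their changes lay below 0 for 9 genes and above 0 for 1, beside a median change of -0.030 over all probe sets tested. The 3 iron regulators had a median of -0.51, the 3 sulfate assimilation genes -0.032 and the 3 proton pump subunits -0.16. The single phosphate gene, LPR2, had a change of -0.069. Some of these signs depended on the class term. With treatment alone in the fit, VHA-A3, VHA-A1 and VHA-A2 had changes of 0.43, 0.25 and 0.16, so that all the pump genes turned positive. APS3 had 0.44 and SIR 0.32 in that fit. ILR3 had -0.72, PYE -0.62, BHLH101 -0.47, LPR2 -0.43 and APS4 -0.23.

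In the iron list, ILR3, a transcription factor of the iron deficiency response, had signals of 2720, 2809 and 2046.3 in red light, against 5751.4, 2449.3 and 5004.9 in the dark. Dark 1 and dark 3, the high-ratio dark arrays, were high, while dark 2 lay among the red light arrays. The change was -0.51 (SE 0.24, limma adjusted p = 0.746), and was -0.98 and -0.031 within the high-ratio and low-ratio arrays. PYE, a repressor in the same network, had 141.9, 302.2 and 247.9 in red light, against 336.8, 247.6 and 464 in the dark. Its change was -0.67 (SE 0.36), with -1.48 within the high-ratio arrays and 0.14 within the low-ratio arrays. The difference in direction between the classes was not tested. The change of BHLH101, which promotes iron uptake, was -0.064 (SE 0.46).

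Differences between the array classes were tested in the same fit, as high-ratio minus low-ratio arrays. Of the 5 tested transporter and channel genes limma called 1 between the classes, where 36.8% of all probe sets tested were called, 14.9% higher and 21.9% lower in the high-ratio arrays. ZIP6 was higher in the high-ratio arrays by 1.02 (SE 0.21, 2.02-fold, limma adjusted p = 0.0041), with a 95% interval of 0.55 to 1.49. Its 3 high-ratio arrays lay at 858.4 to 1071.7 and its 3 low-ratio arrays at 432.7 to 514.9. With replicate number added as a block, which leaves 1 residual degree of freedom, the difference was 1.44 (SE 0.47) and the call was lost, with a limma adjusted p of 0.171. The class differences of GLR3.3, GLR3.6, MTP11 and ZIP9 were 0.51 (SE 0.30), 0.23 (SE 0.42), -0.24 (SE 0.31) and -0.35 (SE 0.40), and none of these 4 was called. The median over the 5 genes was 0.23, beside -0.065 over all probe sets tested.

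Of the 13 untested genes, CHX16 was called in the fit without the filter, higher in the high-ratio arrays by 3.10 (limma adjusted p = 0.0477). That is 1 of 13, where 21.2% of all probe sets were called in that fit. All 6 of its signals lay below 88.4. None of the 7 tested NPF genes was called between the classes. Of the 10 tested genes in the lists, 5 were called between the classes, beside 36.8% of all probe sets tested. LPR2, a multicopper oxidase of the root's response to low phosphate, was higher in the high-ratio arrays by 1.08 (SE 0.22).

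The 3 genes for the membrane subunit a of the vacuolar-type proton pump, which energises transport across internal membranes, were all lower in the high-ratio arrays. VHA-A3 had signals of 692.4, 784.4 and 918.2 in the high-ratio arrays, against 2828.8, 2347.7 and 2631.7 in the low-ratio arrays, for a class difference of -1.76 (SE 0.20, limma adjusted p = 0.000177). VHA-A1 and VHA-A2 differed by -1.29 (SE 0.29) and -0.85 (SE 0.23). The ATP sulfurylase gene APS3, of sulfate assimilation, differed by -1.42 (SE 0.43). For red light minus dark the 3 pump genes had changes of -0.12 to -0.18 in the same fit, each smaller in size than its standard error. With treatment alone their changes lay above 0.

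**Figure D3:**
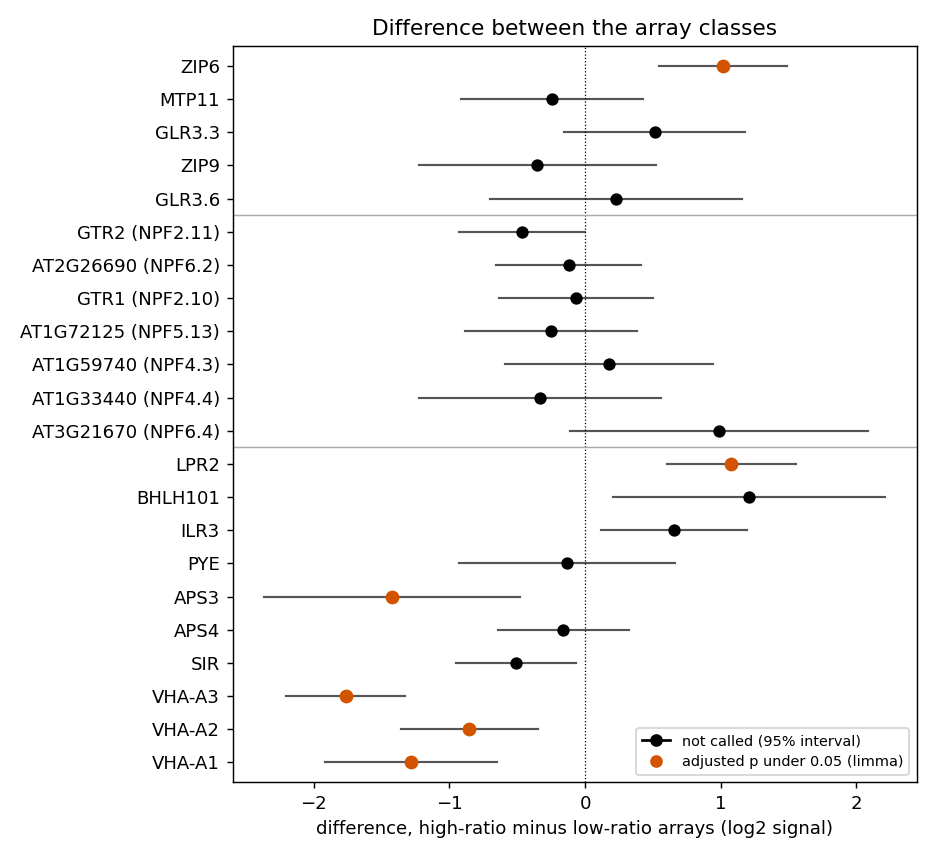
Difference in log2 signal between high-ratio arrays (red light 1, dark 1, dark 3) and low-ratio arrays (red light 2, red light 3, dark 2), with 95% intervals, for the 5 transporter and channel genes (top), 7 NPF genes (middle) and 10 genes of the lists (bottom). Orange points had a limma adjusted p under 0.05, and they are ZIP6, LPR2, APS3, VHA-A3, VHA-A2 and VHA-A1.

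Of 76 marker genes for cell types that a root tip or the shoot could contribute, the annotation names 11 on the array. Of these 10 passed the filter, and limma called 0 for red light, beside 0.125% of all probe sets, while 2 (XTH26 and EXPA18) had an unadjusted p under 0.05, beside 6.88%. Marker signals went down to 9.7, for the untested LHCB4.2 on dark 3, and to 16.6 for EXPA7 on red light 1. Without detection calls, whether each marker was present on each array was not tested. UPB1, a regulator of the root transition zone, had signals of 996.6 to 3561.5 in red light, against 1408.2 to 2110.2 in the dark. The lists of endodermis and of root cap markers had no named probe set. The summed signal of the 3 root hair markers was 474.3 to 3172.3 in red light, against 1377.3 to 3471.8 in the dark, and that of 6 shoot and photosynthesis markers 868.9 to 2479.5 in red light, against 1386.2 to 2086.2 in the dark. In the fit with array class the 3 root hair markers had a median change of -0.999, that of EXPA18 (SE 0.35, limma adjusted p = 0.625). XTH26 was at -0.81 (SE 0.24, limma adjusted p = 0.439) and EXPA7 at -1.54 (SE 0.67, limma adjusted p = 0.730). Red light 1, the only red light array of the high-ratio class, gave the lowest signal of all 3 markers. Within the high-ratio arrays the changes were -1.84 for EXPA18, -1.15 for XTH26 and -3.19 for EXPA7. Within the low-ratio arrays they were -0.16, -0.47 and 0.11. Between the classes 6 of the 10 markers were called, beside 36.8% of all probe sets tested. All 3 root hair markers were called lower in the high-ratio arrays, with a median class difference of -2.47, whereas ZIP6 was higher there. Of 5 tested shoot markers 2 were called, both higher in the high-ratio arrays. UPB1 was also higher there, by 1.06 (SE 0.26, limma adjusted p = 0.0092). The part of these markers in the class difference of ZIP6 was not tested. For a change with red light in whole root tips, fewer cells of a type and less RNA per cell cannot be told apart. The classes themselves were set by the GAPDH ratio, and whether cell content differed between them was not tested.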

How the data were processed

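The values deposited by the authors are linear intensities, 1 for each probe set on each array. The submitters' processing notes name MAS5 as their source. Neither its version nor its detection calls are stated in the labels or the file. RNA (5 µg per sample) was labelled from an oligo-dT primer, per the labels' protocols, which places the target near the 3' end. All arrays have a 2% trimmed mean of 500.04 to 500.06, which a single scaling factor for each array would give. Precision is limited by the number of arrays, 3 in each group.

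Of 22810 probe sets, 64 controls were set aside. Log2 intensities, with no pseudocount added, were filtered at the 40th percentile of the mean and fitted with limma 3.58.1 (statmod 1.5.0, R 4.3.3; lmFit, eBayes with trend and robust) over all probe sets tested, with treatment and array class, 3 residual degrees of freedom, and 2-sided p-values adjusted by Benjamini and Hochberg at 0.05. Array class was set by the largest gap in the GAPDH ratio. The fit was run on data simulated from the same model with independent noise. That run checked the size of the recovered changes and the number of false calls. It set no requirement on the share of true changes found, so it does not show what the fit could detect. Names came from the platform annotation, which gives several genes for 503 probe sets, and locus tags from RefSeq (TAIR10.1, 13436 of 13513 matched). Per family the rule took the tested member with the largest absolute moderated t and the one with the highest mean, which named all 5 tested members. The other members are described because every member is accounted for. Members, lists and the fit with array class were chosen with earlier results of these data known. Alternatives changed the class term, scaling, pseudocount, filter, eBayes, block, weights and arrays.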

Additional observations from a re-analysis of the deposited data

How the results depend on the processing

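Limma called 0 transporter and channel genes for red light in the 16 alternatives, with a smallest adjusted p of 0.417 (MTP11 without dark replicate 2). The number of these genes tested ran from 2, with the filter at the 60th percentile, to 18 without the filter. The change of MTP11 ran from -0.14 without red light replicate 1 to 0.71 without dark replicate 2, so its sign was not stable. The number of all probe sets called was 17, and 0 with treatment alone, 33 with median centring, 30 with a pseudocount of 32 and 5 with plain eBayes. Leaving out 1 array gave 8 to 272, with 8 without red light replicate 2, 9 without red light replicate 3, 71 without red light replicate 1, 28 without dark replicate 3 and 272 without dark replicate 2. The median change of the genes tested was -0.0078, and -0.35 with treatment alone and -0.27 without the filter, when 18 genes entered. In the main fit and with treatment alone, the median was the change of ZIP6. Because the classes cross the groups unequally, a fit by treatment alone carries part of a gene's class difference into its change. Other causes were not tested, beyond the number of genes entering. Between the classes, ZIP6 stayed called in 13 of 14 alternatives, at differences of 0.94 to 1.22, and had a difference of 1.44 with the replicate block, where its call was lost. The number of genes called was 1, with 2 without the filter and 0 with a replicate block. The number of all probe sets called was 5020, with 60 under the replicate block, which leaves 1 residual degree of freedom, and 2404 to 5305 when 1 array was left out, 2404 without red light replicate 1. For red light the replicate block gave 17 calls over all probe sets and 0 among these genes. The labels do not say whether same-numbered arrays are paired. Their deviations from group means had correlations of 0.58, 0.64 and -0.32 over probe sets for numbers 1, 2 and 3. Numbers 1 and 2 each lie in 1 array class and number 3 is split between the classes, so these values follow class and do not settle it. Signal near the floor limits what can be said of the 13 untested genes.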
